A study of Homo sapiens with 22 samples.

Results

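The YAP/TEAD pathway was followed in 11 groups of PC9 libraries through 10 genes: CCN1, CCN2, ANKRD1, F3, AMOTL2, CRIM1, LATS2, AJUBA, YAP1 and TEAD1. They were found by current or older symbol (CCN1 was CYR61, CCN2 was CTGF, AJUBA was JUB), and all 10 were among the 17165 genes of the deposited table. PC9 is an established human lung adenocarcinoma line driven by a mutated, constitutively active EGFR. Each group had 2 libraries of polyadenylated RNA, 22 in all. Parental PC9 made 3 groups, with vehicle, with gefitinib and with WZ4002. Vehicle and WZ4002 were also given to 2 derivatives, PC9-GR2 and PC9-GR3, called GR2 and GR3 from here on. Gefitinib-tolerant cells were given vehicle or gefitinib, and WZ4002-tolerant cells vehicle or WZ4002. Gefitinib is a reversible and WZ4002 an irreversible inhibitor of EGFR. The labels give 24 h of exposure and 1 mM of inhibitor, a unit that is in doubt. The labels do not say how the derivatives were obtained, whether each is a clone, or whether the 2 libraries of a group came from separate cultures. The p-values therefore speak only of how much these libraries vary, and that variation may be technical.

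YAP and its relative TAZ are transcriptional coactivators that bind DNA through the TEAD factors. The Hippo kinases LATS1 and LATS2 phosphorylate YAP and TAZ, which keeps them out of the nucleus. Nuclear YAP with TEAD raises matricellular and cytoskeletal genes such as CCN1, CCN2 and ANKRD1, and also raises inhibitors of its own activity, among them LATS2 and AMOTL2. The pathway is read in cultured epithelial cells through the RNA of these targets, since YAP is regulated largely at the level of the protein. AP-1, the dimer of FOS and JUN proteins that lies downstream of EGFR and ERK, often occupies the same enhancers as TEAD.

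The upstream sequences of CCN2, ANKRD1 and F3 are shown because all 3 were higher in the tolerant libraries than in the others. Of 6 comparisons of an inhibitor with vehicle, ANKRD1 passed in 4, all lower, and CCN2 in 0. F3 passed in 2, as higher in 1 and lower in 1. RefSeq promoter windows on GRCh38.p14 matched 7 of the 10 genes. Entries were absent for CCN1, CRIM1 and TEAD1. The 250 bases before the start were searched on both strands for GGAATG, a core TEAD motif whose reverse complement is CATTCC. They were also searched for TGANTCA, a loose form of the AP-1 motif that takes any middle base and is its own reverse complement. The motifs do not overlap in these windows. Each sequence reads 5′ to 3′ along the gene's strand up to the base before the start, with motif matches in capitals. CCN2 lies at chr6:131951373-131951622, ANKRD1 at chr10:90921088-90921337 and F3 at chr1:94541760-94542009, all on the minus strand.
CCN2: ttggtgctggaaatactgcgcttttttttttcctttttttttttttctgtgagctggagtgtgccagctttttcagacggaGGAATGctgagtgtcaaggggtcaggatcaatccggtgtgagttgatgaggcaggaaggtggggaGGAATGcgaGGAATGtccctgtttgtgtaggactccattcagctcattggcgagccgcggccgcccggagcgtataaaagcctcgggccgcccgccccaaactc
ANKRD1: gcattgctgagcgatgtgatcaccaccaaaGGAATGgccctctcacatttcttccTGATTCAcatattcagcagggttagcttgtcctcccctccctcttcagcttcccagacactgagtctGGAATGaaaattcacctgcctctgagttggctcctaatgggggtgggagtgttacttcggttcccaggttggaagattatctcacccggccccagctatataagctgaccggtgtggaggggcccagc
F3: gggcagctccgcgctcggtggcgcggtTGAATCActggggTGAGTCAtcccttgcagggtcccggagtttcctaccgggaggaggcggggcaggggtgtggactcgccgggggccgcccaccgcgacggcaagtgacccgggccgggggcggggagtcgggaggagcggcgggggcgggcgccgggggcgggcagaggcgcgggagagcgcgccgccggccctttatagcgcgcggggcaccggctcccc

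The CCN2 window held GGAATG in 3 places, starting 169, 104 and 95 bases before the start, and no TGANTCA. The ANKRD1 window held GGAATG in 2 places, 220 and 128 bases before the start, and TGANTCA once, as TGATTCA, 195 bases before it. The F3 window held TGANTCA in 2 places, as TGAATCA and TGAGTCA, 223 and 210 bases before the start, and no GGAATG. Among 35116 promoter windows of the same length, 11.9% held GGAATG and 0.928% held it in 2 or more places. TGANTCA occurred in 6.57% of them, and in 2 or more places in 0.402%. GGAATG also occurred once in a window of AMOTL2 (69 bases before the start), of AJUBA (59) and of YAP1 (162), and the LATS2 window held neither motif. A match describes letters in this window and is not evidence of binding.

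Levels are given in CPM, counts per 1 M reads of a library, and are not compared between genes, since they are not divided by gene length. Differences are of log2(CPM + 1), fitted with limma over 15485 genes, and a difference passes at a Benjamini-Hochberg adjusted p under 0.05 over all of them. Libraries held 23.6 to 49.6 M reads, of which 14.4 to 31.8 M fell in listed genes. All 6 epithelial and PC9 markers were listed, with summed levels of 2961 to 8211 CPM. Of 11 leukocyte, endothelial and fibroblast markers 6 were listed, and their sum was 12.6 to 55.6 CPM, mostly COL1A1 (5.27 to 18.4) and CDH5 (1.91 to 37.2). Each pair of libraries differed by more than sampling noise and was counted as 2 samples. DUSP6, a phosphatase induced by ERK, fell in all 6 comparisons of an inhibitor with vehicle, with log2 differences of -7.15 to -3.09. The summed CPM of 8 mitosis genes also went down. In parental cells it went from 1252 and 837 to 203 and 132 with gefitinib and 127 and 493 with WZ4002. GR2 went from 1322 and 1249 to 476 and 142, and GR3, where libraries overlapped, from 1652 and 769 to 832 and 229. Gefitinib-tolerant cells went from 1229 and 1228 to 882 and 576, and WZ4002-tolerant cells from 1539 and 1102 to 594 and 641. Its part in the differences below was not tested.

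The span of the group means differed widely among the 10 genes. On the log2(CPM + 1) scale, which compresses the scarce CCN2, ANKRD1 spanned 5.54 log2 units between its lowest and highest group mean, CCN1 3.19, F3 2.99 and CCN2 2.65. CRIM1 spanned 2.46, AJUBA 2.09, LATS2 2.01 and AMOTL2 1.53. TEAD1 spanned 0.82 and YAP1 0.62, so the RNA of the coactivator and of its DNA-binding partner varied less than that of every target here. In the order of the 11 group means, WZ4002-tolerant cells with WZ4002 were highest for CCN1, CCN2, ANKRD1 and F3. GR3 cells with WZ4002 were highest for CRIM1, LATS2, AMOTL2 and TEAD1, gefitinib-tolerant cells with gefitinib for AJUBA and GR2 cells in vehicle for YAP1. Of the 10 steps between neighbours in that order, the libraries did not overlap in 5 for CCN1 and F3 and 4 for CRIM1 and LATS2. The count was 3 for CCN2, ANKRD1, AMOTL2 and AJUBA, and 2 for YAP1 and TEAD1. These steps were not counted over all genes, so the counts have no background. Comparing 8 tolerant libraries with 14 others, ANKRD1 and F3 did not overlap, with all 8 higher, which 1.18% of the genes tested also showed. CCN2 did not overlap either, but only the tolerant groups carried it past the filter on low values (1 CPM in 2 libraries), so that share is no background for it.

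**Figure D1:**
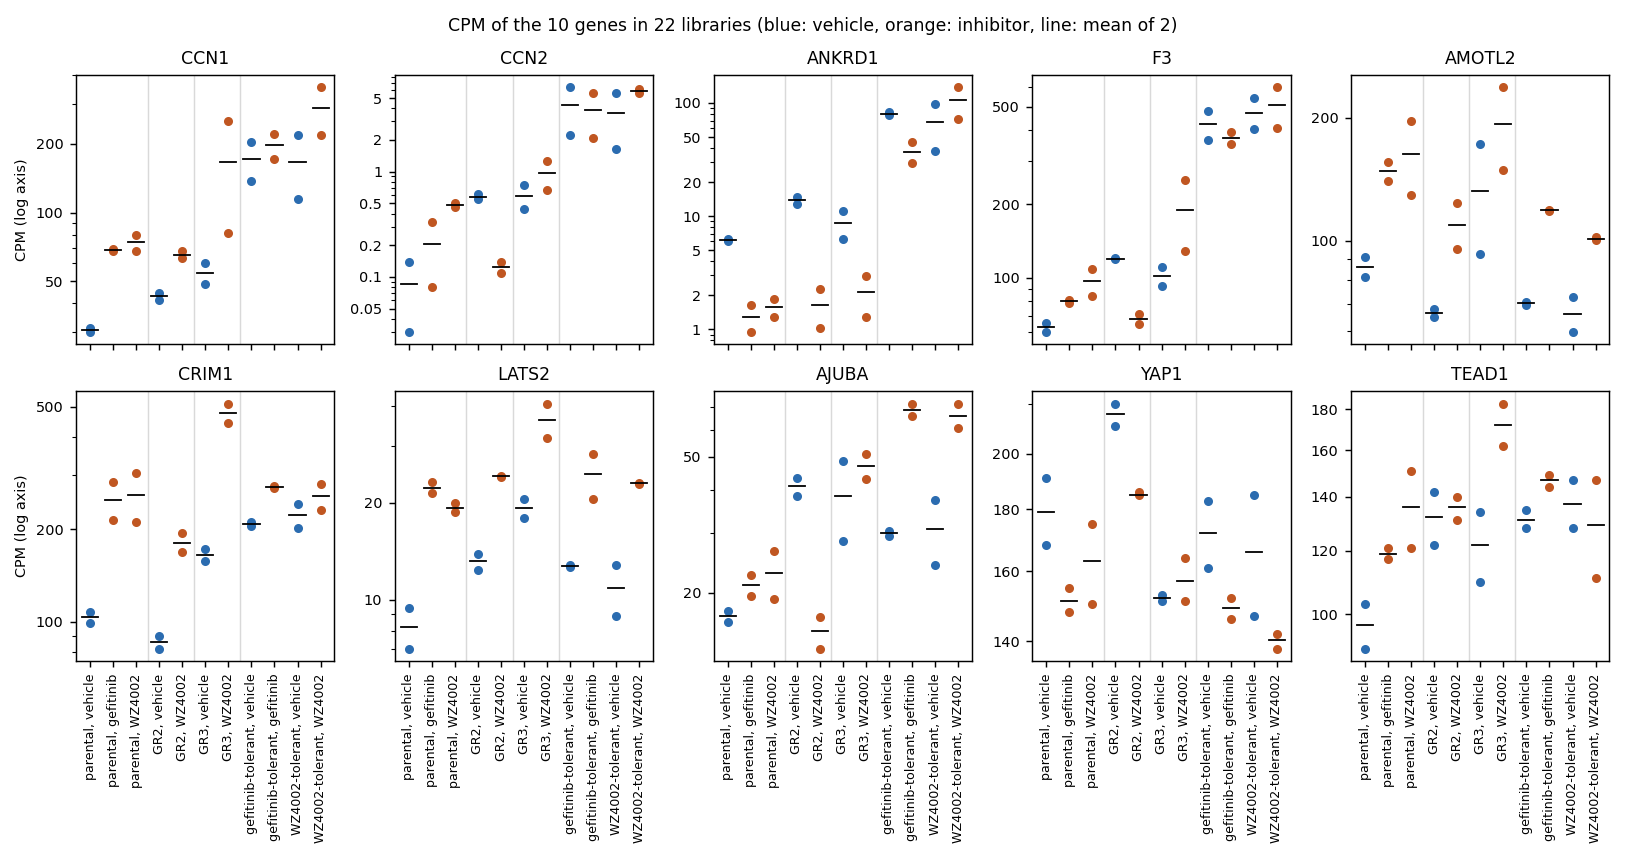
CPM on a log axis (each panel has its own scale) of the 10 genes in 22 libraries, in 11 groups by population and treatment. Points are libraries, blue for vehicle and orange for inhibitor, and black lines are means of 2; CCN2, ANKRD1 and F3 are higher in the 8 tolerant libraries at the right than in the 14 others.

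In vehicle, the gefitinib-tolerant and the WZ4002-tolerant populations both carried more RNA of the secreted, surface and nuclear targets than parental cells. ANKRD1, F3, CCN1 and CRIM1 rose in both, the scarce CCN2 was also higher, and YAP1 lay close to the parental level. Leaving CCN2 aside, 6 of 9 genes passed as higher in each tolerant population and 0 as lower. Among all genes 9.39% were higher in the gefitinib-tolerant and 8.72% in the WZ4002-tolerant cells (19.0% and 18.4% in either direction). The median log2 difference of the 9 was 0.77 and 0.78, against 0.01 over all genes in each. Both comparisons share the parental vehicle libraries.

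CCN1 encodes a secreted matricellular protein that binds integrins. It measured 30.0 and 31.2 CPM in parental vehicle cells, 203 and 138 in gefitinib-tolerant and 115 and 218 in WZ4002-tolerant vehicle cells. Every tolerant library was above both parental ones, by 2.41 ± 0.39 (SE, adjusted p = 0.000575, limma) and 2.34 ± 0.39 (adjusted p = 0.000829) on the log2 scale. In bulk RNA, more cells expressing a gene and more RNA per cell cannot be told apart.

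CCN2, connective tissue growth factor, is a CCN family relative of CCN1 and a standard YAP readout. Parental vehicle libraries had 0.0300 and 0.140 CPM, which is 1 and 5 reads. Gefitinib-tolerant libraries had 2.23 and 6.39 CPM and WZ4002-tolerant ones 1.63 and 5.53. All 4 tolerant libraries lay above both parental ones, but the gene was scarce throughout: 1 to 49 reads in the 14 libraries that are not tolerant and 59 to 255 in the 8 that are. It reached 1 CPM in all 8 tolerant libraries and in 1 of the 14 others, so it passed the filter on low values only through the groups where it is high, and its differences are given as a description. They were 2.17 and 1.94 on the log2(CPM + 1) scale, and the second was 1.28 without WZ4002-tolerant vehicle replicate 2. The added pseudocount compresses such a low gene. In summed reads per library depth, gefitinib-tolerant cells had 53.8 times the parental level and WZ4002-tolerant cells 41.6 times. They are a description and no test, since they set 317 and 231 reads against 6 in parental vehicle cells. The paired libraries also differed, with 75 and 242 reads in gefitinib-tolerant and 59 and 172 in WZ4002-tolerant vehicle cells. These ratios are above those of the mean CPM of ANKRD1, 13.1 and 11.1, although ANKRD1 has the larger difference on the log2(CPM + 1) scale.

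ANKRD1, an ankyrin repeat protein known from stretched muscle and a standard YAP readout, stood at 6.04 and 6.27 CPM in parental vehicle cells. It stood at 78.3 and 82.9 in gefitinib-tolerant and at 37.8 and 98.7 in WZ4002-tolerant vehicle cells. The groups did not overlap, and the differences were 3.51 ± 0.42 (adjusted p = 4.99e-05, limma) and 3.12 ± 0.42 (adjusted p = 0.000166). F3, tissue factor, is the cell-surface receptor that starts coagulation. It rose from 65.5 and 60 CPM to 480.3 and 367 in gefitinib-tolerant cells, by 2.72 ± 0.25 (adjusted p = 7.13e-06), and to 404 and 542 in WZ4002-tolerant cells, by 2.88 ± 0.25 (adjusted p = 5.36e-06). F3 had the lowest p of the 10 genes in both comparisons.

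CRIM1, a transmembrane protein that binds BMPs, about doubled from 108 and 99.6 CPM to 211 and 205 in gefitinib-tolerant and to 202 and 241 in WZ4002-tolerant cells. Its differences were 1.00 ± 0.17 (adjusted p = 0.000976, limma) and 1.09 ± 0.17 (adjusted p = 0.000594). The rises of CCN1, ANKRD1, F3 and CRIM1 in both populations passed without each single library of the comparison.

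AJUBA, LATS2 and AMOTL2, whose proteins act on LATS or YAP, did not follow as a group. AJUBA, a LIM protein that binds and restrains LATS kinases, was 17.7 and 16.4 CPM in parental, 30.4 and 29.4 in gefitinib-tolerant and 24.1 and 37.4 in WZ4002-tolerant vehicle cells. It passed at 0.77 ± 0.23 (adjusted p = 0.028, limma) and 0.78 ± 0.23 (adjusted p = 0.0272), but not without any 1 of the 4 libraries in the first comparison or any of 3 in the second, parental replicates 1 and 2 and WZ4002-tolerant replicate 2 (highest adjusted p 0.138 and 0.27). LATS2 passed in gefitinib-tolerant cells, at 0.58 ± 0.18 (adjusted p = 0.0365), from 7.04 and 9.41 to 12.8 and 12.6 CPM. That call ended without parental replicate 1 (0.39, adjusted p = 0.28) or either gefitinib-tolerant library, in a fit on recovered reads (0.64, adjusted p = 0.0544), and with the spread of the compared libraries alone (0.0744). In WZ4002-tolerant cells LATS2 differed by 0.35 (adjusted p = 0.192). AMOTL2, an angiomotin family protein that holds YAP at junctions, did not pass, at -0.29 and -0.38.

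TEAD1, the DNA-binding factor, passed in WZ4002-tolerant cells at 0.50 ± 0.15 (adjusted p = 0.031, limma), with 147 and 128 CPM against 90.6 and 103, and lost the call without any 1 of the 4 libraries (highest adjusted p 0.199). In gefitinib-tolerant cells it differed by 0.44 (adjusted p = 0.0544). YAP1 overlapped between the groups, with 168 and 191 CPM in parental, 161 and 183 in gefitinib-tolerant and 185 and 147 in WZ4002-tolerant vehicle cells. Its 95% intervals were -0.32 to 0.20 and -0.37 to 0.14.

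**Figure D2:**
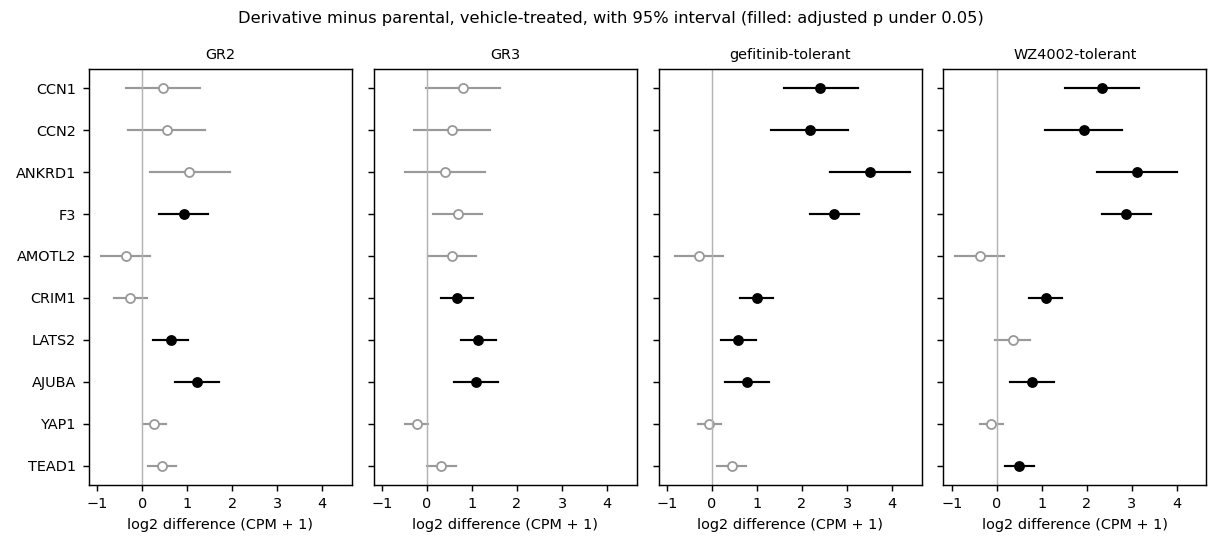
Log2 difference (CPM + 1) of each vehicle-treated derivative from vehicle-treated parental cells for the 10 genes. Points are limma estimates from 2 against 2 libraries, lines 95% intervals, and filled points have an adjusted p under 0.05; ANKRD1, F3, CCN1 and CCN2 lie at 1.94 or above in both tolerant populations, and CCN2 passed the filter only through the tolerant groups.

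LATS2 and AJUBA passed as higher than in parental cells in both GR2 and GR3 in vehicle, F3 in GR2 and CRIM1 in GR3, and the GR2 calls were all lost with a term for the order of the deposited columns. In GR2, 3 of the 10 genes passed, all higher, against 8.98% of all genes higher (16.7% in either direction). In GR3, 3 also passed, all higher, against 9.77% higher (20.8% in either direction). AJUBA measured 43.5 and 38.5 CPM in GR2 and 28.3 and 48.7 in GR3, against 17.7 and 16.4 in parental cells, which is 1.21 ± 0.23 (adjusted p = 0.00234, limma) and 1.08 ± 0.23 (adjusted p = 0.00357) higher. LATS2 measured 13.9 and 12.4 CPM in GR2 and 20.5 and 17.9 in GR3, against 7.04 and 9.41, which is 0.63 ± 0.18 (adjusted p = 0.0281) and 1.14 ± 0.18 (adjusted p = 0.000401) higher. F3 was also higher in GR2, at 119 and 120.0 CPM (0.92 ± 0.25, adjusted p = 0.0219), and CRIM1 in GR3, at 158 and 173 CPM (0.67 ± 0.17, adjusted p = 0.0117). ANKRD1 in GR2, at 12.9 and 14.8 CPM, lay above both parental libraries without passing (1.05, adjusted p = 0.0965).

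The deposited table runs through the libraries in 3 runs of columns whose meaning is not stated, and both GR2 vehicle libraries stand in the third. With a term for these runs, 0 of 10 genes passed in GR2, against 9.36% of all genes. AJUBA gave 0.80 (adjusted p = 0.112, limma), F3 0.39 (0.492) and LATS2 0.64 (0.154). GR2 in vehicle and the third run thus cannot be fully told apart. Without single libraries, F3 in GR2 was lost for each of 4 (highest adjusted p 0.122) and LATS2 in GR2 for parental replicate 1 and each GR2 library (0.22). In GR3, AJUBA was lost without GR3 vehicle replicate 2 (0.70, adjusted p = 0.0582) and CRIM1 without that library (0.0722) or parental replicate 2 (0.08). With the spread of the compared libraries alone, AJUBA and CRIM1 in GR3 missed (0.0758 and 0.0576). LATS2 in GR3 passed without each library.

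Set directly against GR2 in vehicle, GR3 had more CRIM1, AMOTL2 and LATS2 and less YAP1, which is 4 of 10 genes against 33.1% of all genes. CRIM1 was 90 and 81.9 CPM in GR2 and 158 and 173 in GR3, a difference of 0.94 ± 0.17 (adjusted p = 0.000652, limma). YAP1 was 220.2 and 211 CPM in GR2 and 153 and 151 in GR3, lower by -0.50 ± 0.12 (adjusted p = 0.00489), and this was the single comparison of the 17 in which YAP1 passed. AMOTL2 was 67.9 and 65.1 CPM in GR2 and 92.7 and 172 in GR3 (0.91 ± 0.26, adjusted p = 0.0118). LATS2 differed by 0.51 ± 0.18 (adjusted p = 0.0419). With the term for column runs YAP1 gave -0.42 (adjusted p = 0.093) and LATS2 0.50 (0.19). AMOTL2 gave 0.47 (adjusted p = 0.188) without GR3 vehicle replicate 2 and was also lost without either GR2 library, and LATS2 was lost without any 1 of the 4. Both also missed with the spread of the compared libraries alone (0.092 and 0.0609).

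Under the inhibitors the targets moved in opposite directions. LATS2, CRIM1, AMOTL2 and CCN1 rose where they passed, ANKRD1 fell where it passed, and F3 and AJUBA rose in some populations and fell in GR2. YAP1 and CCN2 passed in 0 of 6 comparisons with vehicle. Gefitinib in parental cells changed 5 of the 10 genes (45.3% of all genes passed) and WZ4002 changed 6 (47.5%). WZ4002 changed 6 in GR2 (55.7%) and 6 in GR3 (22%). Gefitinib changed 3 in gefitinib-tolerant cells (28.7%) and WZ4002 changed 2 in WZ4002-tolerant cells (32.6%). Except in GR3, these shares were close to, or below, the share of all genes. In GR3, where paired libraries stood far apart, a spread taken from the 4 compared libraries alone left 1 of the 6, CRIM1. The share of all genes passing was 4.48% with that spread. LATS2, ANKRD1, CCN1, TEAD1 and F3 then had an adjusted p of 0.0679 to 0.199 (limma).

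**Figure D3:**
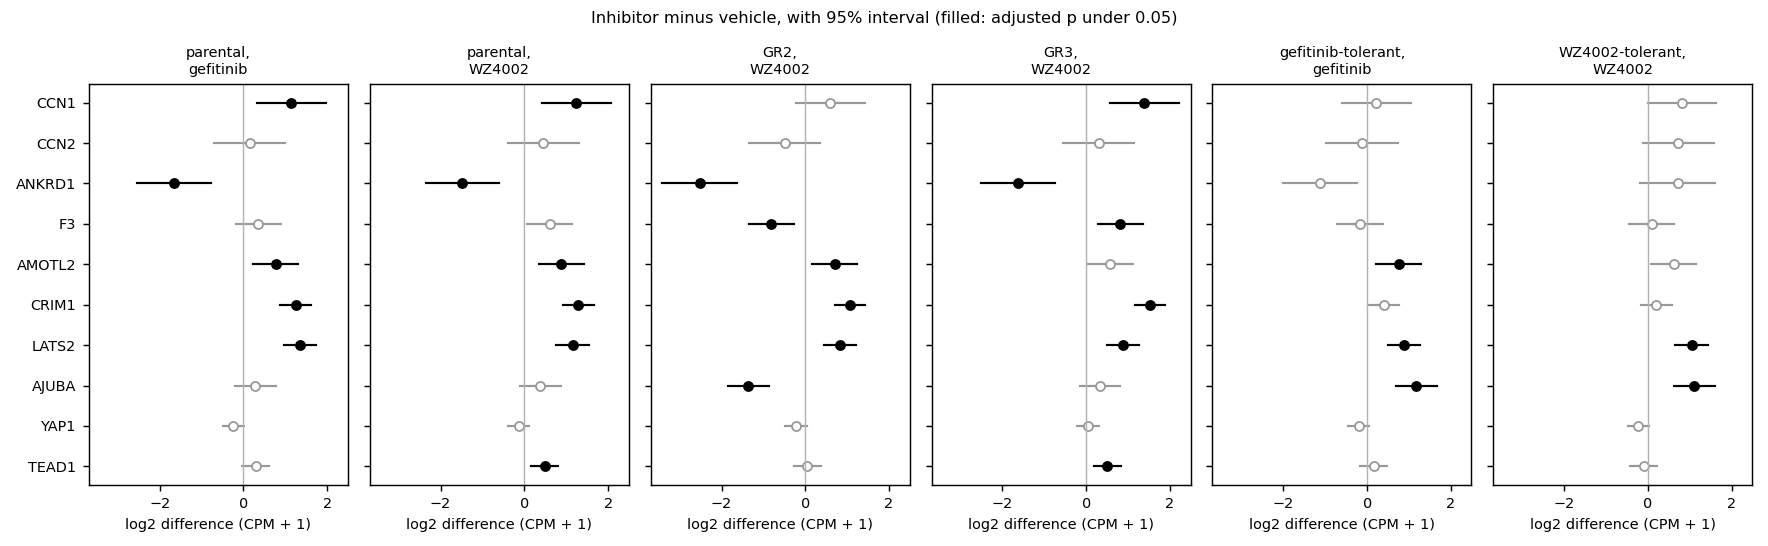
Log2 difference (CPM + 1) between inhibitor and vehicle for the 10 genes in 6 comparisons. Points are limma estimates from 2 against 2 libraries, lines 95% intervals, and filled points have an adjusted p under 0.05; LATS2 is filled and to the right in all 6, and ANKRD1 is filled and to the left in the first 4.

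LATS2, a kinase that inactivates YAP and is itself a YAP target, was higher with inhibitor in 6 of 6 comparisons. In parental cells it went from 7.04 and 9.41 CPM to 23.2 and 21.4 with gefitinib (1.35 ± 0.18, adjusted p = 4.46e-05, limma) and to 20 and 18.7 with WZ4002 (1.15 ± 0.18, adjusted p = 0.00015). In GR2 it went from 13.9 and 12.4 to 24.3 and 24.1 CPM (0.83), and in GR3 from 20.5 and 17.9 to 31.7 and 40.7 CPM (0.87). In the tolerant cells it went from 12.8 and 12.6 to 28.3 and 20.6 CPM with gefitinib (0.88) and from 8.88 and 12.8 to 22.9 and 23.1 with WZ4002 (1.04). Inhibitor and vehicle libraries overlapped in none of the 6 pairs of groups. How many of all genes pass or separate in all 6 was not counted. With so few libraries, genes that did not pass also separated, such as YAP1 in GR2 (-0.22, adjusted p = 0.136, limma). The largest adjusted p was 0.00351, in GR3, where the call was lost without GR3 WZ4002 replicate 2 (0.70, adjusted p = 0.0521), and the other 5 passed without each single library.

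CRIM1 was higher with inhibitor in the 4 comparisons of cells that are not tolerant. Parental cells went from 108 and 99.6 CPM to 285 and 215 with gefitinib (1.25 ± 0.17, adjusted p = 5.11e-05, limma) and to 211 and 305 with WZ4002 (1.28 ± 0.17, adjusted p = 3.68e-05). GR2 went from 90 and 81.9 to 169 and 194 CPM (1.07 ± 0.17, adjusted p = 9.25e-05), and GR3 from 158 and 173 to 444 and 513 CPM (1.53 ± 0.17, adjusted p = 3.15e-05). All 4 passed without each single library, and the 2 GR3 libraries with WZ4002 were the highest of the 22. In tolerant cells, where the vehicle level was already higher, CRIM1 went from 211 and 205 to 273 and 276 CPM with gefitinib (0.40, adjusted p = 0.0931) and from 202 and 241 to 281 and 230.4 CPM with WZ4002 (0.20, adjusted p = 0.382).

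AMOTL2 passed in parental cells with gefitinib (0.77 ± 0.26, adjusted p = 0.0221, limma) and WZ4002 (0.88 ± 0.26, adjusted p = 0.0104), in GR2 (0.70 ± 0.26, adjusted p = 0.0289) and in gefitinib-tolerant cells (0.75 ± 0.26, adjusted p = 0.0391). In gefitinib-tolerant cells the pairs were tight, 69.8 and 70.7 CPM in vehicle and 119 and 118 with gefitinib. In parental cells AMOTL2 went from 81.4 and 91.0 CPM to 156 and 139.9 with gefitinib and to 129 and 196 with WZ4002. GR3 gave 92.7 and 172 CPM in vehicle and 149 and 238 with WZ4002 (0.57, adjusted p = 0.118), which overlapped. WZ4002-tolerant cells gave 59.8 and 72.7 against 100.3 and 102 CPM (0.61, adjusted p = 0.0775). Every passing AMOTL2 call ended without some single library, and brackets give the differences over all 4 left out in turn. For gefitinib in parental cells these were vehicle replicate 1 or either gefitinib library (0.69 to 0.85). For WZ4002 in parental cells they were vehicle replicate 1 or WZ4002 replicate 2 (0.58 to 1.18). In the others they were either GR2 vehicle library or GR2 WZ4002 replicate 2 (0.52 to 0.88), and any gefitinib-tolerant library (0.73 to 0.76). The gefitinib-tolerant call also missed without the filter (adjusted p = 0.0506, limma). The parental WZ4002 call was also lost with the term for column runs (0.59, adjusted p = 0.0593).

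CCN1 rose from 30.0 and 31.2 CPM in parental vehicle cells to 69.5 and 67.7 with gefitinib (1.14 ± 0.39, adjusted p = 0.0255, limma) and to 68.2 and 80.0 with WZ4002 (1.24 ± 0.39, adjusted p = 0.0155). In GR3 it went from 48.6 and 60 to 81.3 and 252 CPM (1.39 ± 0.39, adjusted p = 0.0184). The groups did not overlap in these 3 comparisons, though the 2 GR3 libraries with WZ4002 stood far apart. They also differed in the summed CPM of 8 mitosis genes, 832 in the first and 229 in the second, whose part in the CCN1 value was not tested. Without the second, CCN1 gave 0.58 (adjusted p = 0.275), and without GR3 vehicle replicate 1 it gave 1.24 (0.11). The parental gefitinib call was lost without any 1 of 4 libraries, with differences of 1.11 to 1.16. The parental WZ4002 call was lost without either vehicle library or WZ4002 replicate 2, with differences of 1.13 to 1.36 over all 4 left out in turn. It was also lost with the term for column runs (0.88, adjusted p = 0.0995, limma). CCN1 did not pass in GR2 (63.3 and 67.6 against 41.4 and 44.3 CPM, 0.60, adjusted p = 0.202), in gefitinib-tolerant cells (221 and 172 against 203 and 138, 0.22) or in WZ4002-tolerant cells (218 and 356 against 115 and 218, 0.81, adjusted p = 0.12).

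ANKRD1 went the other way from CCN1. It fell in parental cells from 6.04 and 6.27 CPM to 1.65 and 0.950 with gefitinib (-1.65 ± 0.42, adjusted p = 0.00458, limma) and to 1.29 and 1.87 with WZ4002 (-1.48 ± 0.42, adjusted p = 0.0087). In GR2 it fell from 12.9 and 14.8 to 1.03 and 2.29 CPM (-2.52 ± 0.42, adjusted p = 0.000114), and in GR3 from 6.23 and 11.2 to 1.28 and 2.99 CPM (-1.64 ± 0.42, adjusted p = 0.0113). The vehicle libraries were all above the inhibitor libraries in these 4 comparisons. The parental WZ4002 call was lost without WZ4002 replicate 1 (-1.32, adjusted p = 0.0536) and the GR3 call without GR3 vehicle replicate 2 (-1.26, 0.0787) or WZ4002 replicate 1 (-1.24, 0.102). In gefitinib-tolerant cells ANKRD1 was 78.3 and 82.9 CPM in vehicle and 44.8 and 29.3 with gefitinib (-1.13, adjusted p = 0.0529). That value passed with 5 alternatives, among them a fit on recovered reads (-1.16, adjusted p = 0.0346). In WZ4002-tolerant cells it was 37.8 and 98.7 CPM in vehicle and 72.2 and 139 with WZ4002, which overlapped (0.71, adjusted p = 0.203). Whether the responses of the 2 tolerant populations differ from each other was not tested.

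F3 fell in GR2 from 119 and 120.0 CPM to 64.6 and 70.8 (-0.81 ± 0.25, adjusted p = 0.0132, limma) and rose in GR3 from 92.5 and 111 to 128 and 250.2 (0.81 ± 0.25, adjusted p = 0.0318). The GR2 fall became -0.28 (adjusted p = 0.509) with the term for column runs and was lost without either GR2 vehicle library or WZ4002 replicate 1 (0.0687). The GR3 rise became 0.33 (adjusted p = 0.403) without GR3 WZ4002 replicate 2 and was lost without vehicle replicate 1 (0.173). Parental cells gave 84 and 109 CPM with WZ4002 against 65.5 and 60 (0.60, adjusted p = 0.0622). In tolerant cells F3 stayed between 351 and 603 CPM in all 8 libraries, with vehicle and inhibitor overlapping.

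AJUBA rose in both tolerant populations and fell in GR2. Gefitinib-tolerant cells went from 30.4 and 29.4 to 65.9 and 71.7 CPM (1.17 ± 0.23, adjusted p = 0.00226, limma), and WZ4002-tolerant cells from 24.1 and 37.4 to 60.6 and 71.5 CPM (1.10 ± 0.23, adjusted p = 0.00274). GR2 went from 43.5 and 38.5 to 17 and 13.7 CPM (-1.36 ± 0.23, adjusted p = 0.000142). These groups did not overlap. Leaving out single libraries ended only the call in WZ4002-tolerant cells, without vehicle replicate 1 (0.80, adjusted p = 0.0627). In parental cells AJUBA gave 0.28 with gefitinib (adjusted p = 0.335) and 0.38 with WZ4002 (0.184), and in GR3 0.32 (0.334).

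CCN2 did not pass with either inhibitor in any population, at an unadjusted p of 0.0919 or more. It was 0.0300 and 0.140 CPM in parental vehicle cells, 0.0800 and 0.330 with gefitinib and 0.460 and 0.500 with WZ4002 (0.45, adjusted p = 0.373, limma). In GR2 it was 0.610 and 0.55 CPM in vehicle and 0.110 and 0.140 with WZ4002 (-0.49, adjusted p = 0.316). WZ4002 and vehicle libraries did not overlap in either population, while gefitinib and vehicle libraries did in parental cells, and all of these values rest on 1 to 30 reads a library. With a pseudocount of 0.1 in place of 1, the parental WZ4002 difference was 1.71 (adjusted p = 0.0306) and the GR2 difference -1.60 (0.0364). WZ4002-tolerant cells gave 6.04 and 5.62 CPM against 1.63 and 5.53 (0.72, adjusted p = 0.178).

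TEAD1 rose with WZ4002 in parental cells, from 90.6 and 103 to 121 and 151 CPM (0.48 ± 0.15, adjusted p = 0.0163, limma), and in GR3, from 109.8 and 134 to 162 and 183 CPM (0.50 ± 0.15, adjusted p = 0.0265). The parental call was lost without vehicle replicate 1 (0.39, adjusted p = 0.129) or WZ4002 replicate 2 (0.32, 0.16), and with the spread of the compared libraries alone (0.0716), and the GR3 call without vehicle replicate 1 (0.36, 0.202) or WZ4002 replicate 2 (0.42, 0.167). Gefitinib in parental cells gave 0.29 (adjusted p = 0.126). YAP1 ranged from -0.24 (parental, gefitinib, adjusted p = 0.118) to 0.05 (GR3) over the 6 comparisons, with all 22 libraries between 138 and 220.2 CPM.

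Parental cells also allow WZ4002 to be set against gefitinib, both labelled with 1 mM and 24 h. Limma passed 0 of the 10 genes (and 0 of all genes), 0 of the 10 reached an unadjusted p under 0.05 (525 of all genes did), and limma-voom also passed 0 of each. The intervals are wide for some genes: WZ4002 minus gefitinib was -0.72 to 0.93 for CCN1 and -0.71 to 1.06 for ANKRD1, but -0.33 to 0.40 for CRIM1 and -0.16 to 0.36 for YAP1.

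The size of the response was tested between populations for each gene. F3 and AJUBA responded differently to WZ4002 in GR3 and GR2, by 1.63 ± 0.36 (adjusted p = 0.00763, limma) and 1.69 ± 0.33 (0.00316), which is 2 of 10 genes against 13.6% of all genes. The same 2 genes responded differently in GR2 and parental cells, by -1.42 ± 0.36 (adjusted p = 0.0283) and -1.74 ± 0.33 (0.00565), against 6.79% of all genes. These comparisons share the GR2 libraries. With the term for column runs they gave, for F3, 1.10 (adjusted p = 0.081) and -0.59 (0.581), and for AJUBA -1.10 (0.229) in GR2 against parental cells. Between GR3 and parental cells 0 of 10 responses differed (1.29% of all genes), 0 at an unadjusted p under 0.05 (16.4%) and 0 by limma-voom (0.542%).

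Between WZ4002-tolerant and parental cells 2 responses to WZ4002 differed, against 4.49% of all genes. That of ANKRD1 was higher in tolerant cells by 2.19 ± 0.59 (adjusted p = 0.0464, limma): -1.48 in parental and 0.71 in tolerant cells. That of CRIM1 was lower by -1.08 ± 0.24 (adjusted p = 0.0203): 1.28 in parental and 0.20 in tolerant cells. Without single libraries ANKRD1 was lost for 6 of 8 (highest adjusted p 0.218, without WZ4002-tolerant WZ4002 replicate 2) and kept without WZ4002-tolerant vehicle replicate 2 and WZ4002 replicate 1. CRIM1 was lost for 5 of 8: both parental vehicle libraries, parental WZ4002 replicate 2, and replicate 2 of both WZ4002-tolerant groups (highest adjusted p 0.113). With the spread taken from the compared libraries alone neither passed (0.111 and 0.1), and ANKRD1 also missed without the filter (0.0647) and with limma-voom (2.67, 0.0857). Between gefitinib-tolerant and parental cells 0 of 10 responses to gefitinib passed (2% of all genes). An unadjusted p under 0.05 was reached by 2 (15.5% of all genes), and 0 passed by limma-voom (1.08%). Those 2 were CRIM1 (-0.85, adjusted p = 0.0857) and AJUBA (0.89, adjusted p = 0.188).

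Likeness of profile over the 11 group means of log2(CPM + 1) was computed against 11956 genes, as a description, since groups of a population share their cells. Closest to CCN2 were F3 (Pearson r 0.982), MINDY3 (0.977) and CST6 (0.977). Closest to CCN1 were RABGEF1P1 (0.969), a pseudogene that may hold reads of related genes, UBE2Q2 (0.963) and TGFB2 (0.960), the ligand TGF-beta 2. Within the 10 genes, CCN2 and ANKRD1 correlated at 0.90 and CCN1 and F3 at 0.90. AMOTL2 and LATS2 correlated at 0.79, and ANKRD1 and AMOTL2 at -0.67.

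Other genes of the pathway were taken from lists of 15 further YAP/TEAD targets, of which 13 were tested, and 26 further regulators, all tested. With gefitinib in parental cells 7 of the 13 targets rose and 4 fell, and with WZ4002 6 rose and 4 fell. In GR2 5 rose and 6 fell, in GR3 6 rose and 1 fell, in gefitinib-tolerant cells 6 rose and 3 fell, and in WZ4002-tolerant cells 6 rose and 4 fell. The targets thus moved in both directions in each comparison, as the 10 genes did in 4 of 6. Of all genes 45.3% passed with gefitinib and 47.5% with WZ4002 in parental cells, 55.7% in GR2 and 22% in GR3. The share was 28.7% in gefitinib-tolerant and 32.6% in WZ4002-tolerant cells. How many of all genes pass in at least 4 of 6 comparisons was not counted. CCDC80, an extracellular matrix protein, rose in 6 of 6, by 1.44 to 3.54, and so did IGFBP3, which binds insulin-like growth factors (1.27 to 2.89), and ARHGEF17 (0.65 to 1.10). FJX1, the human relative of the fly protein four-jointed, fell in 6 of 6 (-2.73 to -1.22). TGFB2 rose in 5, and the kinase NUAK2 and the membrane protein MYOF rose in 4. ASAP1 fell in 5 and DOCK5 in 4. NT5E, the ectonucleotidase CD73, rose in parental cells with gefitinib (0.72) and fell in GR2 (-0.87) and in both tolerant populations (-0.97 and -0.77).

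In vehicle, 7 of the 13 further targets passed as higher than in parental cells and 0 as lower in gefitinib-tolerant cells. In WZ4002-tolerant cells 8 were higher and 0 lower. Among all genes 9.39% and 8.72% were higher. GR2 had 5 higher and 0 lower (8.98% of all genes higher), and GR3 4 higher and 2 lower (9.77%). The further targets and regulators were not followed with the term for column runs or the other alternative settings. The list was chosen with earlier results of these data known. AXL, a receptor tyrosine kinase and YAP target, was higher by 3.32 in gefitinib-tolerant and 3.13 in WZ4002-tolerant cells. It was higher by as much in GR3 (3.18), at 142 and 128 CPM against 15.8 and 12.3 in parental cells. With inhibitor AXL fell in parental cells (-0.92 and -0.86) and in GR2, from 31.2 and 30.6 to 5.36 and 2.69 CPM (-2.72). It differed by -0.31 in GR3 and by 0.00 and -0.27 in the tolerant cells, none of which passed.

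Of the 26 regulators, 6 rose and 8 fell with gefitinib in parental cells, and 7 rose and 7 fell with WZ4002. In GR2 7 rose and 10 fell, and in GR3 6 rose and 3 fell. In gefitinib-tolerant cells 3 rose and 7 fell, and in WZ4002-tolerant cells 3 rose and 6 fell. The shares of all genes passing were 45.3% and 47.5% in parental cells, 55.7% in GR2 and 22% in GR3. They were 28.7% in gefitinib-tolerant and 32.6% in WZ4002-tolerant cells. The share of all genes passing in at least 4 of 6 comparisons was not counted. MAP4K4, a kinase that activates LATS, fell in 6 of 6 (-2.57 to -1.21). LATS1, the other LATS kinase, NF2 (merlin), which recruits LATS to the membrane, and FRMD6 each fell in 5, and the MST1 kinase STK4 and the cadherin FAT1 in 4. LATS1 and LATS2 thus passed in opposite directions in 5 of 6 comparisons. WWC1 (KIBRA) rose in 5 and the angiomotin AMOT in 4. VGLL1, a cofactor that binds TEAD in place of YAP, rose in 6 of 6, by 0.55 to 1.22. Among the TEAD factors TEAD3 rose in 5 comparisons and TEAD4 fell in 5 (-1.03 to -0.66 where it passed). WWTR1, which encodes TAZ, fell in GR2 (-0.78), gefitinib-tolerant (-0.45) and WZ4002-tolerant cells (-0.59) and rose in GR3 (0.53). In GR3 WWTR1 was 53.7 and 42.0 CPM in vehicle and 64.6 and 74.2 with WZ4002.

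**Figure D4:**
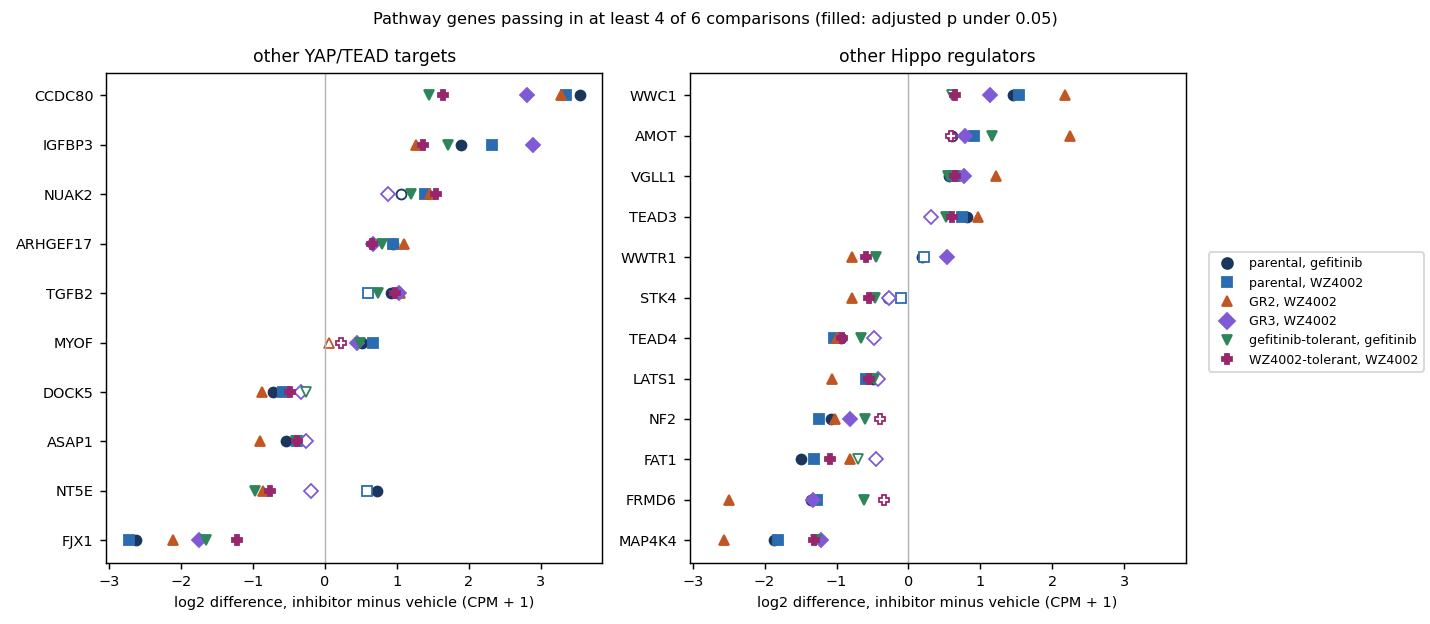
Log2 difference (CPM + 1) between inhibitor and vehicle for 10 further YAP/TEAD targets (left) and 12 further Hippo regulators (right) that pass in at least 4 of 6 comparisons. Each marker is a comparison of 2 against 2 libraries, filled where the adjusted p is under 0.05; MAP4K4 and FJX1 are filled and left of 0 in all 6, and CCDC80, IGFBP3, ARHGEF17 and VGLL1 filled and right of 0 in all 6.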

How the data were processed

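The submitters' processing notes name STAR, HTSeq and hg19 and give no versions, and how strand was treated in counting is not given in the sources used here. The authors deposited CPM for 17165 genes, rounded to 2 decimals, with 0 values equal to 0 and 0 columns not mapped to a sample. Depth was recovered from the spacing of each library's CPM, the value of 1 read: 100% of values were whole reads within rounding, where chance gives 23.6 to 49.6%. Gene symbols matched 16779 identifiers.

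The analysis used log2(CPM + 1). It kept 15485 genes that reached 1 CPM in 2 or more libraries and removed 1680. Means of the 11 groups were fitted by limma 3.58.1 (R 4.3.3) with a trend of variance on level. There were 11 residual degrees of freedom, and the prior ones had a median of 4.8. P-values of each of 17 contrasts were adjusted by Benjamini-Hochberg over all genes, at 0.05. The fit was tested on simulated data. The 10 genes and the lists of further genes were chosen with earlier results of these data known. Further genes were named if they passed in at least 4 of 6 comparisons of an inhibitor with vehicle, and WWTR1, TEAD4 and AXL in any case, of which AXL alone, at 3 of 6, fell short of that count. For CCN1 and CCN2 the 3 most alike genes with a mean of at least 5 CPM in a group were named. The settings varied were a smaller pseudocount (0.1), testing every listed gene, median-of-ratios scaling, a replicate block and leaving out each library. A term for column runs, limma-voom on the recovered reads, and the spread of the compared libraries alone were chosen after seeing the data. Promoter windows came from RefSeq (GRCh38.p14), and no coordinates were taken from the expression data.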

Additional observations from a re-analysis of the deposited data

Results flagged for a closer look

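A test of the difference between 2 populations' responses picked out 6 values. The WZ4002 response of F3 was higher in GR3 than in GR2 by 1.63 on the log2 scale, and that of AJUBA by 1.69. Against parental cells the GR2 response was lower for F3, by -1.42, and for AJUBA, by -1.74. Both genes stood high in GR2 vehicle cells, whose 2 libraries are in the third run of columns of the deposited table, and the part of those runs was not separated from GR2. AJUBA in GR3 against GR2 passed with every alternative and without each single library. The WZ4002 response of ANKRD1 was higher in WZ4002-tolerant than in parental cells by 2.19, at an adjusted p of 0.0464 (limma), and that of CRIM1 was lower by -1.08. Both of the last were lost without several single libraries.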

How the results depend on the processing

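Over 17 comparisons 58 differences of the 10 genes passed, 29 of them without every single library in turn, and 0 changed sign under any alternative. A pseudocount of 0.1, median-of-ratios scaling and the replicate block lost 0 of them, no filter 2, limma-voom 2, the term for column runs 11 and the spread of the compared libraries alone 13. Of the 58, 2 are of CCN2, which passed the filter only through the tolerant groups, and 1 of the 29. The quasi-likelihood count test considered at the outset was not run; limma-voom on the recovered reads was the count test used. The replicate block gave 7 passing genes for WZ4002 in parental cells (48.9% of all genes) where the fit without it gave 6 (47.5%). The labels do not say that the numbers pair libraries. Same-numbered deviations correlated at -0.464 to 0.633 (median 0.0514) over 55 pairs of groups, 20 of them over 0.1. Counts of passing genes moved by over 1.5 times as follows. With the term for column runs they were 0 for GR2 against parental cells (9.36% of all genes passed) and 2 for GR3 against GR2 in vehicle (25.3%). With that term they were 1 for the response of GR3 against GR2 (13.4%) and 0 for that of GR2 against parental cells (2.18%). With the spread of the compared libraries alone they were 1 for WZ4002 in GR3 (4.48% of all genes), 8 for GR2 against parental (29.6%) and 2 for GR3 against GR2 (23.7%). With that spread they were 2 for the gefitinib response of gefitinib-tolerant against parental cells (4.46%). They were 0 for the WZ4002 response of WZ4002-tolerant against parental cells (1.41%). That response gave 1 with no filter (3.87%) and 1 with limma-voom (3.68%). Leaving out single libraries, where the lone sample of an arm is assumed to vary like the others, the counts ranged from 3 to 4 for gefitinib and 3 to 5 for WZ4002 in parental cells, 2 to 7 for WZ4002 in GR3 and 1 to 6 in WZ4002-tolerant cells. They ranged from 1 to 2 for GR2, 1 to 4 for GR3 and 4 to 6 for WZ4002-tolerant against parental cells, and 2 to 3 for GR3 against GR2. For responses they ranged from 1 to 2 for GR2 against parental and 0 to 3 for WZ4002-tolerant against parental cells. Differences that had not passed changed sign for AJUBA in GR3 (-0.06 to 0.71), YAP1 in GR3 (-0.01 to 0.10) and CCN1 in gefitinib-tolerant cells (-0.06 to 0.49). The share of all genes passing shifted too when single libraries were left out. The cause of these shifts was not tested. Depth limits CCN2 outside the tolerant populations, at 1 to 49 reads.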
